A study of Mus musculus with 4 samples.

Results

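The chemokine CCL21 and 5 genes used to recognise lymphatic endothelium were examined in whole gonadal white adipose tissue (gWAT) of female mice. The members were the 5 symbols Ccl21a, Ccl21b, Ccl21c, Gm13304 and Gm10591, every further entry whose description names CCL21, and Prox1, Flt4, Lyve1, Pdpn and Mmrn1. They had been chosen from the same contrast that is described here, so their values are a description and support no claim. Of 17335 genes in the table, 13 were members: 8 Ccl21 entries and 5 lymphatic genes. Of the 10 symbols, 8 had a row; Ccl21b and Ccl21c were not analysed here. The other 5 rows carry only a provisional identifier of the sequencing provider and were found by their description.

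Both groups carried floxed alleles of Dnmt1, the maintenance DNA methyltransferase, and were fed a high-fat diet for 18 weeks. The group called fl/fl consisted of floxed littermate controls, and the group called AD1KO carried in addition an adiponectin-Cre transgene, which drives recombination mainly in mature adipocytes, so the other cells of the depot are not the intended target. The Cre status of the controls and the ages of the animals are not given in the sources used here. Equal amounts of RNA from 4 animals were combined into 1 library per group, so no spread between animals could be measured, no test was possible, and every difference given here compares 2 libraries.

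Expression was given as FPKM, fragments per kilobase of transcript scaled to the number of mapped fragments, and a value of 0.01, the lowest in the table, was treated as 0. Reads per gene were estimated from the steps between low FPKM values and the gene lengths, which gave a depth of 17685000 reads for fl/fl and 17549000 for AD1KO. A log2 ratio is AD1KO over fl/fl after adding 0.01 FPKM to each, or a ratio of summed reads at those depths where entries were added up. The range in brackets after a ratio is its exact 95% counting interval, which covers counting error only and holds nothing of the variation among animals. No molecular identifiers were used, so reads copied from the same molecule could not be recognised, and the interval may be too narrow even for counting error. Genes with at least 0.1 FPKM in either library were compared (15839 genes), and a gene was counted as higher or lower when its log2 ratio passed 0.5. By this count 14.3% of the compared genes were higher in AD1KO and 19.1% were lower (33.4% in all), with a median log2 ratio of -0.04. With upper quartile scaling this balance turned over, to 2796 genes higher and 2609 lower, so the counts of higher and lower genes depend on the scaling. Dnmt1 itself was 6.99 FPKM in fl/fl and 3.33 in AD1KO, with a log2 ratio of -1.07 [-1.27, -0.87], which is the direction of the labels.

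CCL21 is a chemokine made by lymphatic endothelial cells and by the stroma of lymphoid organs. It binds CCR7 and guides T cells and mature dendritic cells toward lymphatic vessels and into lymph nodes, a route it shares with CCL19, the other ligand of CCR7. The mouse carries several nearly identical copies of the gene, of which Ccl21a is known to encode the serine form and Ccl21b and Ccl21c the leucine form of the protein. Short reads from such copies can be placed on any of them, so the entries are given both singly and as sums.

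The reference genome (NCBIM37, also called mm9, the build of the files) held 8 loci that matched at least 800 bases of the Ccl21a transcript, 6 of them on chromosome 4 within 1013.32 kb and 2 on an unplaced contig. Ccl21a lies at chr4:42786392-42787525 on the minus strand. Gm1987, at chr4:42231045-42232176 on the plus strand, matched it with 0 differences over the 868 bases of its transcript, and Gm1987 was not analysed here as an entry of its own. Ccl21b (chr4:41774204-41775337, plus strand), Ccl21c (chr4:42391951-42393082, minus strand), Gm13304 (chr4:41985540-41986640, plus strand) and Gm10591 (chr4:42625653-42626784, plus strand) each differed from Ccl21a at 6 bases across the matched locus. Within the 402 coding bases these 4 copies differed from Ccl21a at 2 positions, T84A and C194T, where positions count from 1 at the A of the start codon, the Ccl21a base comes first and the base of the other copies last.

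The stretches that hold these differences are shown because they are the whole of what separates the coding sequences of the copies. They are given 5′ to 3′ on the coding strand, with the differing base in capitals. The first pair lies in exon 2 (coding bases 70 to 129) and for Ccl21a spans chr4:42787234-42787293 on the minus strand.
Ccl21a and Gm1987, exon 2: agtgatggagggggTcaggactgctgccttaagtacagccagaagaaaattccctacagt
Ccl21b, Ccl21c, Gm13304 and Gm10591, exon 2: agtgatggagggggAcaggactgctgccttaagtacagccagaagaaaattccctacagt
The second pair lies in exon 3 (coding bases 191 to 250) and for Ccl21a spans chr4:42787019-42787078 on the minus strand.
Ccl21a and Gm1987, exon 3: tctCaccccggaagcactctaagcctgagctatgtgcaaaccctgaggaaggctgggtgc
Ccl21b, Ccl21c, Gm13304 and Gm10591, exon 3: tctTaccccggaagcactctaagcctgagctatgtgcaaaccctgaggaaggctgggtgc
In each pair a single base tells the copies apart. Of the 821 windows of 50 bases along the Ccl21a transcript, 819 (99.8%) also occurred unchanged in Gm1987, and 588 (71.6%) occurred unchanged in at least 1 of the other 4 copies. At 100 bases these counts were 769 of 771 (99.7%) and 388 of 771 (50.3%). Stretches of these lengths could therefore rarely be told apart between Ccl21a and Gm1987, and often not between Ccl21a and the other copies.

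The 250 bases upstream of the place where each copy's match to the Ccl21a transcript begins were as alike. For Gm13304 this place is chr4:41985507, ahead of its annotated start. Gm1987 had 0 differences from Ccl21a there, Ccl21b had 1, and Ccl21c, Gm10591 and Gm13304 had 2 each. The Ccl21a stretch (mm9, chr4:42787526-42787775, minus strand, 5′ to 3′) is shown because the copies share nearly all of it, and its 2 capitals mark the bases that differ in at least 1 of the others.
Ccl21a, upstream: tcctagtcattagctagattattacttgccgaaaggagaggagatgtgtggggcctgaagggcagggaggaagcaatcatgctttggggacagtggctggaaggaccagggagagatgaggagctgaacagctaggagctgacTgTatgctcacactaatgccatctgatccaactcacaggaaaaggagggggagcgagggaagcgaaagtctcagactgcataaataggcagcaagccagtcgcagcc

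**Figure D1:**
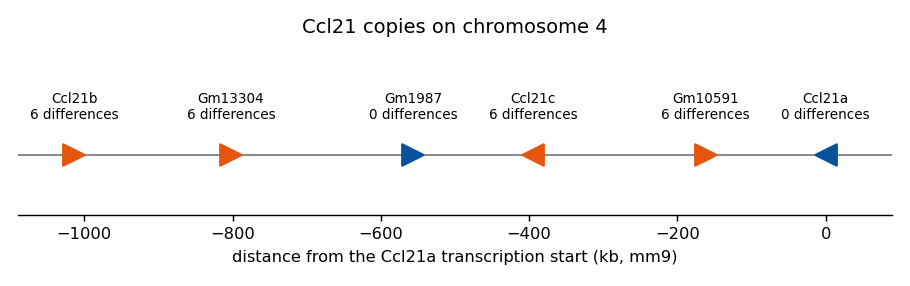
The 6 Ccl21 copies on chromosome 4 of mm9, drawn at their distance in kb from the Ccl21a transcription start (x axis). Arrowheads give the strand, blue marks copies with 0 differences from the Ccl21a transcript and orange those with 6; Ccl21b lies farthest from Ccl21a, 1013.32 kb away.

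Among the single entries, the reads annotated as Ccl21a precursor sat under a different row in each library. The entry named Ccl21a (gene identifier 18829, 868 bases) was 0.13 FPKM in fl/fl, about 2 reads, and 37.74 FPKM in AD1KO, about 497 reads, a log2 ratio of 8.07 [6.11, 11.0]. The unnamed entry BGI_novel_G000662 (870 bases), described as the same precursor, was 23.11 FPKM in fl/fl, about 307 reads, and was listed at 0 in AD1KO, so that its log2 ratio has no lower limit and its counting interval ended at -6.36. These 2 rows of almost the same length moved in opposite directions, each nearly empty in the library where the other was filled.

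The remaining 6 entries were described as Ccl21c precursor. Gm13304 and Gm10591 (gene identifiers 100504346 and 100504239) held identical values, 4.42 FPKM in fl/fl and 9.70 in AD1KO, about 59 and 128 reads each, with a log2 ratio of 1.13 [0.67, 1.60]. BGI_novel_G000734 was 2.72 FPKM in fl/fl and 1.67 in AD1KO, with a log2 ratio of -0.70 [-1.49, 0.08] whose interval held 0. BGI_novel_G000732 was listed at 0 in fl/fl and 6.34 FPKM in AD1KO, about 27 reads, and the counting interval of its log2 ratio began at 2.78 with no upper limit. The last 2 were at or near the floor in both libraries: BGI_novel_G000737 was listed at 0 and 0.18 FPKM (about 3 reads in AD1KO), and BGI_novel_G000659 at 0 and 0.15 FPKM (about 4 reads in AD1KO). All 8 entries reached 0.1 FPKM in a library, and 6 were higher and 2 lower by the count above, but entries that share reads are not independent and the entries were chosen from this contrast, so nothing is read from that count. The table does not place the unnamed entries in the genome.

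Summed over the 8 entries, Ccl21 was higher in AD1KO. All 8 entries together held 465 reads in fl/fl and 809 in AD1KO (34.8 and 65.48 FPKM summed over rows), with a log2 ratio of 0.81 [0.64, 0.98] or 1.75-fold. The 2 rows annotated as Ccl21a precursor held 309 and 497 reads, a log2 ratio of 0.70 [0.49, 0.91], and the 6 annotated as Ccl21c precursor held 156 and 313, a log2 ratio of 1.01 [0.73, 1.30]. Since Gm13304 and Gm10591 held identical values, the same reads may stand in both rows, and with Gm10591 left out the log2 ratio over all entries was 0.76. If so, the intervals of the sum over all entries and of the Ccl21c rows are too narrow. The 2 classes differed between the libraries in the same direction, with overlapping intervals. In bulk tissue, fewer cells of a type and less RNA per cell cannot be told apart, and this holds for every value given here.

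The sum depends on counting the unnamed rows. The 3 named entries alone went from 119 to 752 reads, a log2 ratio of 2.67 [2.39, 2.96], whereas the 5 unnamed entries went from 346 to 57, a log2 ratio of -2.58 [-3.02, -2.18]. Between the libraries 6 entries gained 667 reads and 2 lost 323. Without the entry named Ccl21a the sum turned over, to a log2 ratio of -0.56, and without BGI_novel_G000662 it was 2.37, while without both of these rows it was 1.01. Among all compared genes, 1217 (7.68%) had a log2 ratio at or above that of the Ccl21 sum.

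The make-up of the Ccl21 reads by annotation was similar in the 2 libraries. Rows annotated as Ccl21a precursor took 66.5% of the reads in fl/fl (exact Clopper-Pearson 95% interval 62.0 to 70.7) and 61.4% in AD1KO (58.0 to 64.8). Nearly all of that share lay in BGI_novel_G000662 in fl/fl (66.0%) and in the entry named Ccl21a in AD1KO (61.4%). The entry named Ccl21a took 0.430% of Ccl21 reads in fl/fl (0.0521 to 1.54), and BGI_novel_G000662 took 0 of 809 in AD1KO, an upper bound of 0.455%. These bounds cover counting error only and hold nothing of how reads were placed among near-identical rows. Reads that may stand in both Gm13304 and Gm10591 are counted in each.

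**Figure D2:**
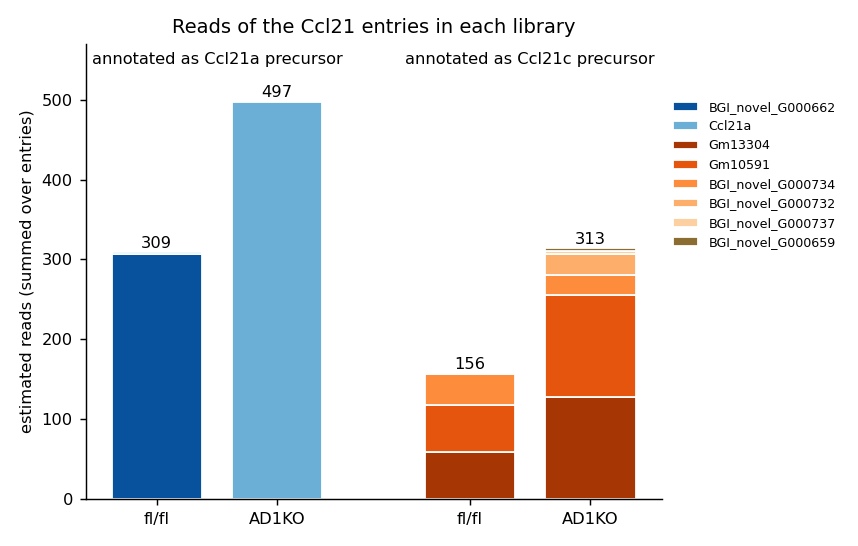
Estimated reads (y axis) of the Ccl21 entries in the fl/fl and AD1KO libraries, stacked by entry and split by annotated precursor, with 1 pooled library per bar and the sum above it. The Ccl21a-annotated bars of 309 and 497 reads consist almost wholly of BGI_novel_G000662 in fl/fl and of the entry named Ccl21a in AD1KO; the Ccl21c-annotated bars reach 156 and 313.

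The 5 lymphatic genes did not move as a group. PROX1 is the transcription factor that sets lymphatic endothelial fate, FLT4 is VEGFR-3, the receptor for VEGF-C and VEGF-D, and LYVE1 is a hyaluronan receptor of lymphatic capillaries that some macrophages also carry. Podoplanin, encoded by Pdpn, is made by lymphatic endothelium but also by mesothelium and stromal cells, and Mmrn1 encodes multimerin 1, found in lymphatic endothelium and platelets. Of these 5, 4 could be compared, and 1 of the 4 was higher and 0 were lower, beside 14.3% and 19.1% of all compared genes. The whole counting interval lay above 0 for 1 of the 4 and below 0 for 0, beside 21.5% and 29% of all compared genes, and since the members were chosen from this contrast nothing is read from these shares. Their median log2 ratio was 0.16, against -0.04 for all compared genes.

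Prox1 (chr1:191945660-191994559, minus strand), the defining factor, was given as 0.01 in both libraries. For its length of 4148 bases a single read is worth 0.0140 FPKM, which is also written as 0.01, so Prox1 may have had 1 read or none in each library and no ratio is given. The same value stood in both libraries for 124 genes, of which 121 were at least 3887 bases long, the length from which 1 read is written as 0.01.

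Mmrn1 (chr6:60874970-60939372, plus strand) was 0.27 FPKM in fl/fl and 0.73 in AD1KO, about 22 and 58 reads, a log2 ratio of 1.40 [0.68, 2.19]. Its interval overlapped that of the Ccl21 sum, as did those of 4002 of the 15839 compared genes. Mmrn1 was the member that passed 0.5. Flt4 (chr11:49422765-49466241, plus strand) was 0.88 FPKM in fl/fl and 1.12 in AD1KO, about 89 and 113 reads, a log2 ratio of 0.34 [-0.06, 0.77] that counting error alone could bring to 0. The levels of both genes were low, and their ratios are correspondingly wide.

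Lyve1 (chr7:117994121-118006467, minus strand) was 8.93 FPKM in fl/fl and 8.49 in AD1KO, about 393 and 371 reads, a log2 ratio of -0.07 [-0.28, 0.14]. Pdpn (chr4:142857334-142889467, minus strand) was 16.44 and 16.19 FPKM, about 500 and 489 reads, a log2 ratio of -0.02 [-0.20, 0.16]. These 2 genes had the most reads of the 5, and their values in the libraries lay close together. Both intervals lay wholly below that of the Ccl21 sum, as did those of 73.9% of all compared genes. In each library the level per length ran from Pdpn down through Lyve1, Flt4 and Mmrn1 to Prox1. With Prox1 at no more than about 1 read per library and Lyve1 and Pdpn shared with other cells, the group is referred to by gene names and not as a measure of lymphatic endothelial cells.

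**Figure D3:**
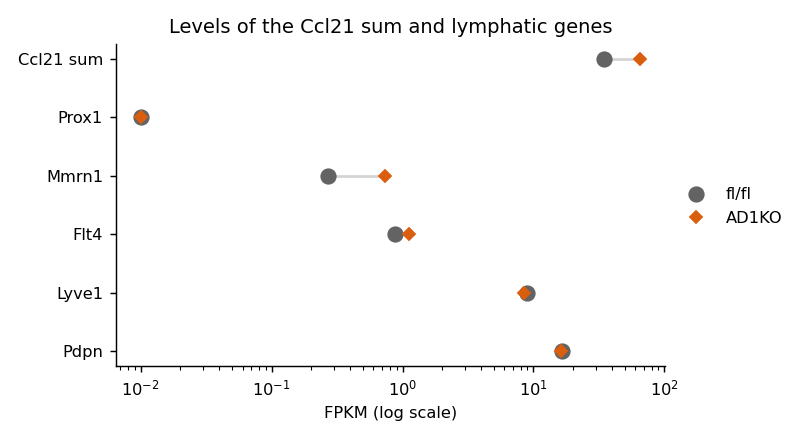
FPKM in the fl/fl library (grey circles) and the AD1KO library (orange diamonds) for the Ccl21 sum and the 5 lymphatic genes, on a logarithmic x axis; 0.01 is the floor of the table. The Ccl21 sum (34.8 and 65.48) and Mmrn1 (0.27 and 0.73) lie apart in the 2 libraries, Lyve1 and Pdpn almost coincide, and Prox1 sits at the floor in both.

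Of 20 further genes associated with lymphatic endothelium, 8 were higher, 6 lower and 6 neither, with a median log2 ratio of 0.28 and a range from -1.27 to 1.24. Among all compared genes 14.3% were higher and 19.1% lower. By counting interval the balance was the other way, with 6 genes wholly above 0 and 8 wholly below. All compared genes leaned the same way by interval, with 21.5% wholly above 0 and 29% wholly below. Nts (about 2 and 5 reads, the top of the range), Tbx1 (3 and 7) and Cldn11 (2 and 4) were counted as higher on intervals that held 0. Foxc2, a factor needed for lymphatic valves, was 0.47 FPKM in fl/fl and 0.83 in AD1KO, and Nr2f2, which acts with PROX1 in the specification of lymphatic endothelium, was 3.53 and 5.28, log2 ratios of 0.81 [0.01, 1.63] and 0.58 [0.35, 0.82]. Reln, which encodes the secreted protein reelin, was 0.08 and 0.16 FPKM, a log2 ratio of 0.92 [0.15, 2.02] on few reads, and Sema3d was 0.77 and 1.01, a log2 ratio of 0.39 [-0.03, 0.81]. In the other direction, Stab2, a hyaluronan scavenger receptor, went from 2.82 to 1.16 FPKM, a log2 ratio of -1.27 [-1.55, -1.01], and Ptx3, which encodes a secreted pentraxin, from 4.53 to 2.24, a log2 ratio of -1.01 [-1.45, -0.60]. Itga9, an integrin subunit of lymphatic valves, went from 2.44 to 1.47 (-0.73 [-1.03, -0.45]) and Nrp2, a co-receptor for VEGF-C, from 8.41 to 5.17 (-0.70 [-0.86, -0.55]). The 2 genes of the list with the highest levels, Fabp5 and Maf, had log2 ratios of -0.06 and -0.19 and are active in many cells. The list thus held genes on both sides, and the intervals of 10 of its 20 genes lay wholly below that of the Ccl21 sum, beside 73.9% of all compared genes.

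Among 14 genes of VEGF-C and VEGF-D signalling, 3 were higher, 3 lower and 8 neither, with a median of 0.28. These counts stand beside 14.3% higher and 19.1% lower of all compared genes, and nothing is read from them. Adamts3, the protease that processes pro-VEGF-C, was 0.20 FPKM in fl/fl and 0.41 in AD1KO, with a log2 ratio of 1.00 [0.37, 1.80], and Ccbe1, its cofactor, was 0.66 and 1.26, a log2 ratio of 0.92 [0.48, 1.37]. The ligands themselves differed less: Vegfc was 4.64 and 5.43 FPKM (0.23 [-0.11, 0.55]) and Vegfd 21.65 and 27.80 (0.36 [0.21, 0.51]). Angpt2 was 4.29 and 2.75 FPKM, a log2 ratio of -0.64, Akt1 67.46 and 47.1, a log2 ratio of -0.52, and Epn1, an endocytic adaptor, 74.2 and 65.14, a log2 ratio of -0.19.

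The partners of CCL21 on the CCR7 axis were mostly lower in AD1KO. Of 8 genes, 6 were lower and 1 higher, beside 19.1% and 14.3% of all compared genes, with a median log2 ratio of -0.70. Ccr7, the receptor, was 4.28 FPKM in fl/fl and 2.67 in AD1KO, with a log2 ratio of -0.68 [-1.09, -0.29], and Itgal, the integrin subunit with which lymphocytes adhere, was 5.81 and 1.68, a log2 ratio of -1.78 [-2.07, -1.53]. Ccl19 is present as 11 entries in the table, and these held 524 reads in fl/fl and 252 in AD1KO, with a log2 ratio of -1.05 [-1.27, -0.83], opposite in direction to Ccl21. Glg1, a Golgi glycoprotein, was 13.92 and 12.44 FPKM, a log2 ratio of -0.16. The row named Ccl19 was 16.25 and 6.91 FPKM, and the single Ccl19 entries also scattered, from -8.27 to 8.06. Ccl19 and Ccl21 added together held 989 and 1061 reads, a log2 ratio of 0.11 [-0.01, 0.24]. Reads that may stand in both Gm13304 and Gm10591 are counted in each here too, so that interval may be too narrow. Whether Ccl19 rows share reads was not tested, and if they do, the interval of the Ccl19 sum is too narrow as well. The gene of the list that was higher was Ackr4, a scavenger receptor for both ligands, which was 1.02 FPKM in fl/fl against 2.35 in AD1KO, with a log2 ratio of 1.20 [0.62, 1.79].

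**Figure D4:**
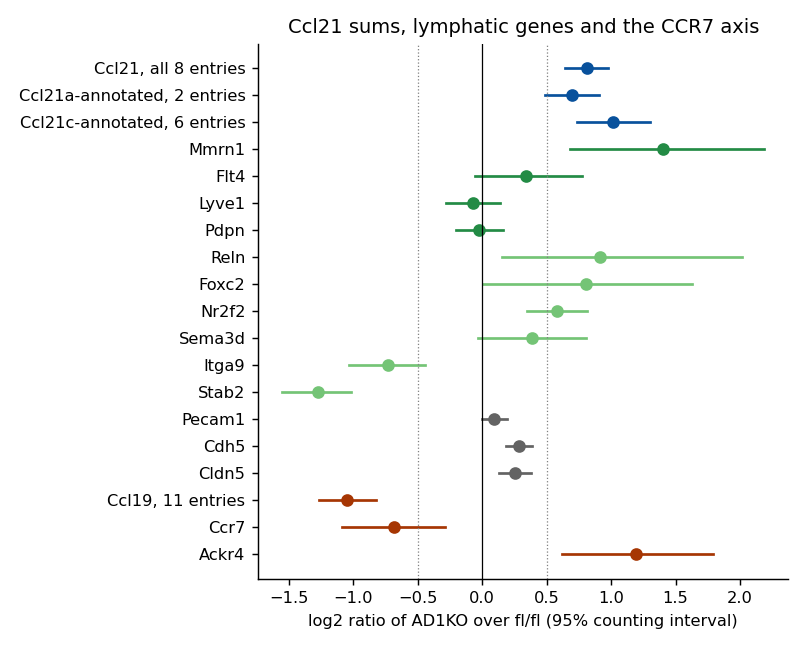
Log2 ratio of AD1KO over fl/fl (x axis; points) with 95% counting intervals (lines) for the Ccl21 sums (blue), lymphatic members and other lymphatic genes (dark and light green), pan-endothelial genes (grey) and the CCR7 axis (brown), with dotted lines at the 0.5 threshold. The Ccl21 sum at 0.81 lies right of Lyve1 (-0.07) and Pdpn (-0.02), and the Ccl19 sum at -1.05 lies on the opposite side of 0.

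CCL21 is also made in lymphoid tissue, and genes of such tissue are given beside the 14.3% higher and 19.1% lower of all compared genes. Of 14 genes of lymphoid stroma and lymphotoxin signalling, 1 was higher and 5 lower, with a median of -0.29, and Cxcl13, a chemokine of B cell follicles, was 14.43 FPKM in fl/fl and 13.54 in AD1KO, with a log2 ratio of -0.09 [-0.35, 0.17]. Lta, a subunit of lymphotoxin, was 1.08 and 0.22 FPKM, a log2 ratio of -2.24 [-4.05, -0.90], and Ltb, the other subunit, was 24.5 and 11.75, a log2 ratio of -1.06. Ltbr, their receptor, was 45.23 and 50.37 FPKM, a log2 ratio of 0.16, and Tnfrsf11a, which encodes the receptor RANK, was 6.10 and 2.89, a log2 ratio of -1.08. Of 6 genes of high endothelial venules, 1 was higher and 2 lower, and Glycam1, a ligand of L-selectin in those venules, was 13.51 and 9.91 FPKM, a log2 ratio of -0.45 [-0.85, -0.04]. Of the enzymes that build the selectin ligands, Chst4 was 0.87 and 1.45 FPKM (log2 ratio 0.73) and Fut7 1.35 and 0.70 (-0.94), while Cd34, also made by other endothelium and stroma, was 55.11 and 56.54 (0.04). None of the genes on these lists was listed at 0 in either library.

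Lists of markers of other cells that can make the members were read in the same way. Counts of higher and lower genes on them stand beside 14.3% and 19.1% of all compared genes. Summed FPKM over 14 blood and pan-endothelial genes was 237.83 in fl/fl and 268 in AD1KO, and 1 gene was higher and 0 lower, with a median of 0.28 and the intervals of 11 of the 14 wholly below that of the Ccl21 sum, again beside 73.9% of all compared genes. Cldn5, a tight junction protein, was 44.62 and 53.31 FPKM (log2 ratio 0.26), the receptors Tie1 and Kdr had log2 ratios of 0.50 and 0.49, and Eng had -0.36. Over 10 mesothelial genes the sum was 99.28 and 176.38, with 7 higher and 1 lower and a median of 0.76, and Upk3b, a uroplakin of mesothelium, went from 30.55 to 64.26 FPKM (log2 ratio 1.07), Krt19 from 21.1 to 35.81 (0.76) and Cdh1 from 0.23 to 0.08 (-1.42). Over 8 genes of Lyve1-positive macrophages it was 395.45 and 431.24, with 2 higher and 3 lower and a median of 0.32, and Folr2 went from 164.89 to 105.24 (log2 ratio -0.65), Cbr2 from 70.1 to 131.45 (0.91) and Cd209f from 19.9 to 38.43 (0.95). Mesothelium and these macrophages are sources of Pdpn and Lyve1 transcript respectively, and their part in those values was not tested.

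The immune and fat cell lists differed in opposite directions. Their counts stand beside 14.3% higher and 19.1% lower of all compared genes. Over 10 macrophage genes the summed FPKM was 4789.61 in fl/fl and 1918.72 in AD1KO, with 9 lower and 0 higher, and over the 9 T cell genes that could be compared it was 84.51 and 26.9, with 9 lower and 0 higher. The complement genes C1qa and C1qb of macrophages had log2 ratios of -1.42 and -1.45, and the T cell genes Cd3d, Cd3g and Lck had -1.80, -1.85 and -1.64. The 9 dendritic cell genes summed to 49.07 and 36.57, with 5 lower and 2 higher, and Clec9a, Xcr1 and Fscn1 had log2 ratios of -2.17, -1.89 and -0.21. Over 8 adipocyte genes the sum was 16608.1 and 25363.5, with 7 higher and 0 lower and a median log2 ratio of 0.56. Of the 8 intervals, 3 overlapped that of the Ccl21 sum and 5 lay wholly below it. Among all compared genes 73.9% lay wholly below it. The adipocyte genes Adipoq, Cidec, Retn and Fabp4 had log2 ratios of 0.80, 0.96, 0.84 and 0.51. The defining markers on all of these lists were above 0 in both libraries. The part of such differences in cell make-up in the Ccl21 and lymphatic values was not tested.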

How the data were processed

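The deposited table held, for 17335 genes, an expression value per library in FPKM, which the authors' service provider made from oligo-dT mRNA libraries sequenced on a BGISEQ-500 and aligned to mm9. The quantifier is not given in the sources used here, and the column header does not name the unit, which was taken from the values and gene lengths. The table also held the authors' log2 fold changes, p-values and adjusted p-values (FDR), which were not used.

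Reads were estimated from the FPKM steps of low genes (151 values in fl/fl and 146 in AD1KO, of which 70.9% and 66.4% came within 0.1 of a whole read), with 117.75 bases taken off each length. Values of 0.01 were set to 0. Intervals are Clopper-Pearson at 95% confidence (SciPy 1.17.1, NumPy 2.4.6, pandas 2.3.3, Python 3.11.15). Scripts were tested on simulated data. Copies were found with BLAST 2.17.0 (at least 85% identity and 800 bases) in NCBIM37 with GENCODE vM1 annotation. Figures were drawn with Matplotlib 3.10.9.

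The members and the 16 further gene lists were chosen with earlier results of these data known. Named were every member, Dnmt1 and, per list, the 2 genes with the highest level and the 2 with the largest absolute log2 ratio among those with at least 10 reads. Ccr7, Ackr4, Angpt2, Cxcl13, Foxc2, Itga9, Nr2f2, Nrp2, Reln, Sema3d, Vegfc, Vegfd, Nts, Tbx1 and Cldn11, and Pecam1 and Cdh5 in a plot, fell outside this rule and were named for their role after their values were seen, and 1 gene that met the rule is not reported here. Each group was 1 pooled library, so no test was made. The alternatives were other scalings, pseudocounts, minimum levels and thresholds, and sums that left out entries. The 2 methylation samples of the 4 in the series were not analysed here.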

Additional observations from a re-analysis of the deposited data

How the results depend on the processing

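No paired analysis was possible because each group was 1 pooled library, and for the same reason no replicate could be left out. Of 63 settings run on the main results, 51 left the value within its counting interval or within 1.5 times the count, 11 moved it and 1 reversed it. The log2 ratio of the Ccl21 sum lay between 0.81 and 0.91 as reported and under other scalings, pseudocounts or a sum of FPKM. It was 2.67 over named symbols alone, 2.31 over entries with neither library at 0, 2.37 without BGI_novel_G000662 and reversed to -0.56 without the entry named Ccl21a; without both, a setting chosen after seeing the data, it was 1.01. With a pseudocount of 1 FPKM, 0 lymphatic members were higher (Mmrn1 was then 0.45), and 965 genes were higher and 1661 lower in all. A minimum of 1 FPKM left 1281 genes higher, and a threshold of 1 on the log2 scale left 910 higher and 1417 lower. Without Lyve1 and Pdpn the median of the lymphatic members was 0.87, from 2 low genes. The scalings shifted all log2 ratios by at most 0.09, yet upper quartile scaling gave 2796 genes higher and 2609 lower, against 2265 and 3029 as reported. Depth limits what can be said of Prox1, Mmrn1 and Flt4.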

Other observations

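Families that neighbour the Ccl21 copies on chromosome 4 were also read. Of 11 such genes that could be compared, 2 were higher, 1 lower and 8 neither, with a median log2 ratio of 0.27. Among all compared genes 14.3% were higher and 19.1% lower, so nothing is read from these counts. The lower gene was Ccl19. Cntfr, a receptor subunit for ciliary neurotrophic factor, was 2.61 FPKM in fl/fl and 4.92 in AD1KO, with a log2 ratio of 0.91 [0.54, 1.31], whereas Dctn3, a dynactin subunit, was 70.87 and 85.26 FPKM, a log2 ratio of 0.27.

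Of 8 homeostatic chemokines, with the row named Ccl19 among them, 5 were lower and 0 higher, with a median of -0.54. Here too the counts stand beside 14.3% higher and 19.1% lower of all compared genes. Cxcl12 was 73.51 FPKM in fl/fl and 72.71 in AD1KO, with a log2 ratio of -0.02, and Cxcl14 was 18.25 and 6.46, a log2 ratio of -1.50. Over 8 B cell genes 5 were lower and 0 higher, with a median of -0.68, and Cd79a, Cd79b and Pax5 had log2 ratios of -0.70, -0.68 and -0.75. Over 10 genes of adipose stroma 1 was higher and 2 lower, with a median of 0.13, where Dcn had a log2 ratio of 0.20, Ly6a -1.31 and Pi16 -0.70.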
